A study of Mus musculus with 10 samples.

Results

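The genes described here encode 5 connexins and 1 pannexin, *Gja1*, *Gja4*, *Gja5*, *Gjb2*, *Gjc1* and *Panx1*. They were taken by gene symbol, by a rule that used no values but was set with earlier results of these data known. All 6 are among the 17816 genes of the day 7 table and the 20007 genes of the adult table. Day 7 samples were Sertoli cells taken from mice 7 days old, comprising 2 samples of the *Rnf20* Flox/Flox genotype, which the labels call wild type (WT), and 2 from *Amh-Rnf20*-/- mice, labelled as the conditional knockout (cKO). In the latter, Cre recombinase under the *Amh* promoter removes the *Rnf20* sequence between the loxP sites, and both genotypes carry these sites. The cells were plated after enzymatic digestion, passaged, and kept for the adherent fraction. The methods name 3 individuals for each genotype, and the series as analysed here holds 2 samples of each. The age and cell type follow the sample titles and the RNA extraction label, whereas the growth label calls all 10 samples adult. Adult samples were whole testis, 3 labelled wild type and 3 labelled RNF20 conditional knockout, and the labels state neither their floxed alleles nor their age in days. No group was treated. Separate individuals are stated for day 7 only, and their number there differs from that of the samples. The p-values at both ages thus measure the spread between samples, and this spread may be technical.

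Connexins assemble into channels that dock between neighbouring cells as gap junctions and let ions and small metabolites pass. Pannexins form related channels in the membrane of a single cell and release ATP. In the seminiferous epithelium, *Gja1* (Cx43) is the best known connexin, joining Sertoli cells to each other and to germ cells near the blood-testis barrier, and male mice without *Gja1* in Sertoli cells lack normal spermatogenesis. *Gja4* (Cx37) and *Gja5* (Cx40) are known from vascular endothelium, *Gjb2* (Cx26) from epithelia and the inner ear, and *Gjc1* (Cx45) from conducting cells of the heart and vascular smooth muscle.

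In GRCm38.p6, *Gja1* lies at chr10:56377300-56390419, *Gja4* at chr4:127311420-127314039, *Gja5* at chr3:97032402-97053634, *Gjb2* at chr14:57098602-57104702, *Gjc1* at chr11:102799477-102819686 and *Panx1* at chr9:15005785-15045478. The protein of *Gja1* (382 codons), *Gja4* (333), *Gjb2* (226) and *Gjc1* (396) is encoded within 1 exon in every coding transcript of the GENCODE annotation, whereas that of *Panx1* (426 codons) is split over 5 coding exons. The sequence just upstream of the RefSeq start is shown for the 3 members that were higher together in the adult samples labelled cKO, 5′ to 3′ on the strand of each gene and ending at the base before the start. Capitals mark matches to the motifs searched. The regions are chr10:56377200-56377299 on the plus strand for *Gja1*, chr4:127314040-127314139 on the minus strand for *Gja4* and chr9:15045479-15045578 on the minus strand for *Panx1*.
Gja1: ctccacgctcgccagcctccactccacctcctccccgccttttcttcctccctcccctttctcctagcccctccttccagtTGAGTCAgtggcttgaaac
Gja4: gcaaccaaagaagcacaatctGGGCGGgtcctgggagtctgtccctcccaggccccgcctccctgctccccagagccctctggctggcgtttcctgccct
Panx1: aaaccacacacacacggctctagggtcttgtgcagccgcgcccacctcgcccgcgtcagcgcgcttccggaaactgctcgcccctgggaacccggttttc
Within 250 bases upstream of each start, both strands were searched for 4 motifs, the TATA box TATAAA, the GC box GGGCGG, the AP-1 site TGANTCA and the SOX core AACAAT, and no 2 matches overlapped. The first transcribed bases after the RefSeq start were found in a GENCODE transcript for *Gja4* and *Panx1* but not for *Gja1*, so positions for *Gja1* hold for the RefSeq start alone. The upstream sequence of *Gja1* held 1 AP-1 match at positions -19 to -13, a motif found in 6.75% of 32851 promoters of the same length. That of *Gja4* held 1 GC box at -79 to -74, as did 32.7% of all promoters, and that of *Panx1* held none of the 4. The GC content of these windows was 50.0% for *Gja1*, 61.2% for *Gja4* and 59.6% for *Panx1*. The 3 members thus shared none of the searched letters. A match is given as a description of the sequence only.

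Samples held 17477268 to 17705347 estimated counts at day 7, and adult samples 15431912 to 16574144. *Rnf20* itself held 16.64 and 16.01 FPKM in the day 7 WT samples and 10.25 and 12.58 in the cKO samples, a difference of -0.49 on the log2 scale that did not pass the test (SE 0.12, adjusted p = 0.222, edgeR). In adult testis it held 4.89, 3.32 and 4.09 FPKM in WT and 9.16, 5.76 and 9.85 in the samples labelled cKO, so the gene-level values did not show the deletion there (log2 difference 0.12, SE 0.27, adjusted p = 0.688, edgeR). Reads from outside the deleted exons count towards these values, which therefore do not check the deletion. All 12 Sertoli cell markers were detected in every group. At day 7 their summed FPKM was 3784 to 3880 in WT and 3061 to 3568 in cKO, beside 2118 to 2248 and 3822 to 3901 for the 7 markers of peritubular myoid cells, the contractile cells around the tubules. Samples within the cKO groups were unlike. At day 7 the cKO samples differed from each other by a chi-square of 34.3 per degree of freedom, against 2.65 between the WT samples. In adult testis, replicate 1 of the samples labelled cKO stood apart, differing from the others by 88.1 and 118, against 21.4 between those. Summed FPKM of 10 spermatocyte markers was 2.94 in adult cKO replicate 1 and 103 and 176 in replicates 2 and 3. The members' adult differences are therefore also given without it, and those of day 7 without a cKO sample where that changed a call or a sign. Among the called genes that the naming rule took from the lists below, *Gjc1* alone lost its call without adult cKO replicate 1.

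At day 7 the members fell into abundant and scarce genes, and no member passed the test for a genotype difference. Levels in FPKM are per length and can be compared between genes. In WT Sertoli cells *Gja1* (24.6 ± 1.65, SD, n = 2) and *Panx1* (23.4 ± 0.841) overlapped, *Gjc1* followed at 12.7 ± 1.46, and *Gja4* (0.525 ± 0.00707) and *Gjb2* (0.440 ± 0.127) overlapped far below them, with *Gja5* (0.0800 ± 0.0283) at the bottom. *Gja1* exceeded 77.5% to 79.4% of the genes of the table in the WT samples, whereas *Gja5* exceeded 13.6% to 17.0%. In cKO cells *Gja1* (28.4 ± 11.6) again overlapped *Panx1* (19.8 ± 1.73), *Gjc1* was at 16.7 ± 2.30, and *Gja4* (0.360 ± 0.113), *Gjb2* (0.405 ± 0.0778) and *Gja5* (0.150 ± 0.127) remained below 1 FPKM.

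**Figure D1:**
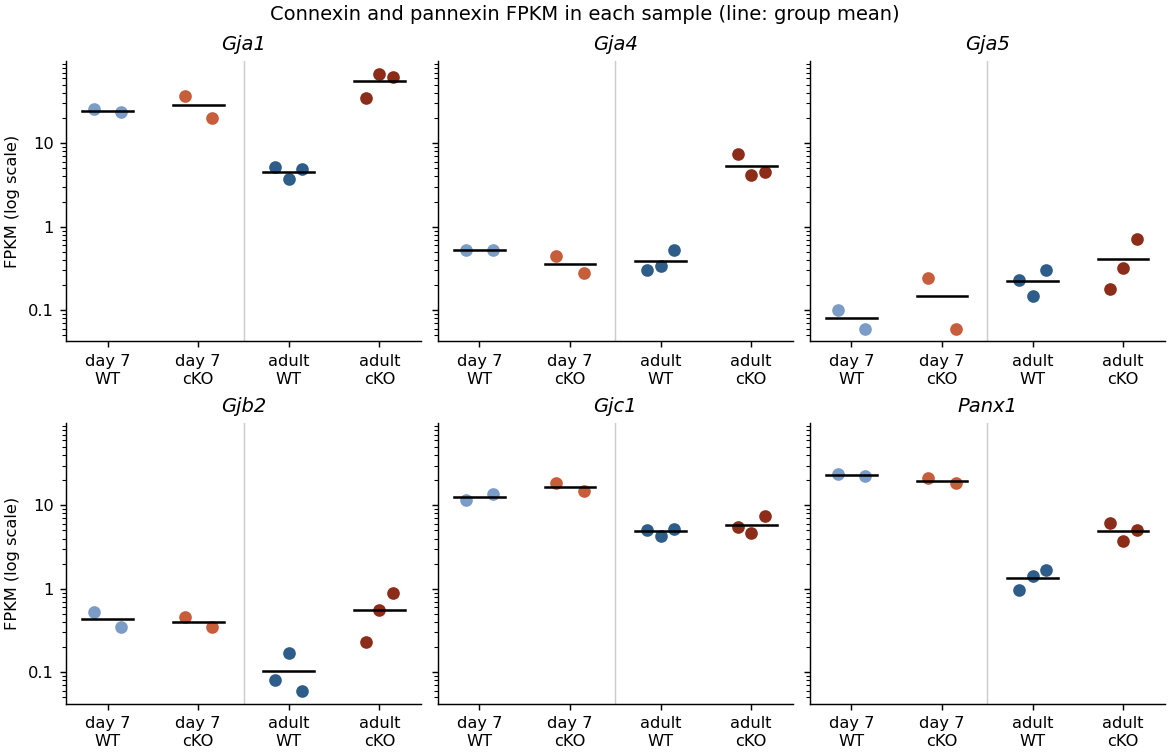
FPKM of each member in every sample on a log axis, in 4 groups (day 7 WT and cKO, n = 2 each; adult WT and cKO, n = 3 each), with a horizontal line at the group mean. *Gja1*, *Gja4*, *Panx1* and, from few counts, *Gjb2* lie higher in all 3 adult samples labelled cKO than in all 3 adult WT samples, while the day 7 groups of *Gja1* overlap.

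Of the members, 4 (*Gja1*, *Gja4*, *Gjc1* and *Panx1*) passed the filter on low values at day 7, and 0 of these 4 passed an adjusted p of 0.05 by edgeR, as did 0% of the 12880 genes tested. One member passed an unadjusted p of 0.05, where 15.5% of all genes tested did, and no member did so with DESeq2 or limma. DESeq2 called 388 genes higher and 193 lower at day 7 over the whole table, and none of the members was among them. The groups of 3 members did not overlap on TMM-scaled counts, against 51% of all genes. The median log2 difference of the 4 members was 0.0252, and over all genes tested it was -0.00388.

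*Gja1* held 25.77 and 23.43 FPKM in the WT samples and 36.6 and 20.24 in the cKO samples. The WT values lay between the cKO values, and the log2 difference was 0.25 (SE 0.30, adjusted p = 0.736, edgeR). Replicate 1 of the cKO decided its sign: without that sample the difference was -0.25, and without cKO replicate 2 it was 0.62, both by edgeR. Such fits leave a single cKO sample, assumed to vary like the WT samples, so only their effect sizes are given for the members. *Gjc1* held 11.7 and 13.76 FPKM in WT and 18.29 and 15.04 in cKO. Both cKO values lay above both WT values, and the log2 difference of 0.44 (SE 0.16) had an unadjusted p of 0.0470 and an adjusted p of 0.315 by edgeR. The difference passed the test in no fit that kept all samples. It was 0.28 without cKO replicate 1 and 0.58 without cKO replicate 2, both by edgeR.

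*Panx1* held 23.96 and 22.77 FPKM in WT and 21.03 and 18.58 in cKO. Both cKO samples were the lower ones, by a log2 difference of -0.20 (SE 0.11, adjusted p = 0.451, edgeR). The difference was -0.30 without cKO replicate 1 and -0.11 without cKO replicate 2, both by edgeR. *Gja4* rested on few reads, with 13 and 13 estimated counts in WT and 11 and 7 in cKO (0.52, 0.53, 0.44 and 0.28 FPKM). It passed the filter through the WT samples, the higher group, and its log2 difference was -0.49 (SE 0.42, adjusted p = 0.628, edgeR). Without cKO replicate 1 it was -0.86, and without cKO replicate 2 it was -0.19, both by edgeR. *Gjb2* (0.53 and 0.35 FPKM in WT, 0.46 and 0.35 in cKO) and *Gja5* (0.10 and 0.06 in WT, 0.24 and 0.06 in cKO) were below the filter, and the groups of both overlapped. On log2(FPKM + 0.1), *Gjb2* differed by -0.08, and by 0.07 without cKO replicate 2, and *Gja5* by 0.38, and by -0.16 without cKO replicate 1. *Gja5* was represented by 3 to 12 counts per sample, and the smallest difference detectable at such counts was not tested.

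In adult testis, *Gja1*, *Gja4* and *Panx1* were higher in the samples labelled cKO, by ratios of 6.62, 7.74 and 2.03 of their mean TMM-scaled CPM (counts relative to the scaled library size). *Gjc1* had a ratio of 0.667 on that scale, and its direction turned with the scaling. *Gja5* and *Gjb2* remained scarce. By edgeR, 3 of the 4 tested members rose and 1, *Gjc1*, was lower with TMM but not with total counts, where 40.9% of the 15919 genes tested rose and 40.6% fell. The groups of all 4 tested members did not overlap, against 85.5% of all genes. With the stricter thresholds of an adjusted p under 0.001 and a log2 difference over 1, *Gja1* and *Gja4* passed, where 23% of all genes tested passed in that direction. *Gja4* entered the test through the samples labelled cKO, so counts that include it describe the members and support nothing. Most genes of the table thus differed between these tissues, and the count of members called is read against that background.

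Scaling sets the zero of these comparisons. TMM factors were 0.71 to 0.761 in adult WT and 1.27 to 1.42 in the samples labelled cKO. The median log2 difference of all genes tested was 0.870 with total-count scaling and -0.187 with DESeq2 size factors. Called genes were split into 6503 higher and 6466 lower with TMM, into 8615 and 4775 with total counts, and into 5985 and 6928 with DESeq2 size factors.

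*Gja1* held 5.13, 3.73 and 4.86 FPKM in adult WT and 35.0, 67.94 and 62.25 in the samples labelled cKO. Every cKO value was above every WT value, the lowest being that of replicate 1, and the log2 difference was 2.73 (SE 0.26, adjusted p = 0.000172, edgeR). It was 3.08 without cKO replicate 1 (adjusted p = 1.22e-07), and between 2.52 and 3.59 over all alternatives. The rank of *Gja1* within the sample moved likewise, from above 55.9% to 58.8% of the genes of the table in WT to above 86.4% to 92.2% in the cKO.

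*Gja4* held 0.30, 0.34 and 0.52 FPKM in adult WT, from 7, 8 and 12 estimated counts, and 7.35, 4.15 and 4.48 FPKM in the samples labelled cKO, from 167, 96 and 99 counts. The groups did not overlap, and replicate 1 was the highest. *Gja4* rose by 2.94 on the log2 scale (SE 0.41, adjusted p = 0.000757, edgeR), and by 2.72 without cKO replicate 1 (adjusted p = 5.28e-05). It passed the filter on low values through the cKO samples, so that it would not have been tested had they been as low as the WT samples. *Gja5*, the other endothelial connexin among the members, held 0.23, 0.15 and 0.30 FPKM in WT and 0.18, 0.32 and 0.72 in the cKO. Its groups overlapped, and it did not pass the filter. On log2(FPKM + 0.1) it differed by 0.52, by 0.87 without cKO replicate 1 and by 0.10 without cKO replicate 3, the sample with the highest value.

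*Panx1* held 0.96, 1.41 and 1.69 FPKM in adult WT and 6.09, 3.70 and 5.09 in the samples labelled cKO. All cKO samples were above all WT samples, and *Panx1* rose by 1.02 (SE 0.33, adjusted p = 0.0274, edgeR). This call was the less firm one: the difference was 0.82 with DESeq2 size factors (adjusted p = 0.0632) and 1.01 with the replicate number as a block (adjusted p = 0.0848). It was 0.81 without WT replicate 1 (adjusted p = 0.0797) and 1.08 without WT replicate 2 (adjusted p = 0.0658), all by edgeR. It was 0.93 without cKO replicate 1 (adjusted p = 0.0150).

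*Gjc1* held 5.06, 4.32 and 5.23 FPKM in adult WT and 5.45, 4.68 and 7.43 in the samples labelled cKO. On FPKM the groups overlapped with the higher mean in the cKO (5.85 ± 1.42 against 4.87 ± 0.484, n = 3), whereas TMM-scaled counts did not overlap and were lower in the cKO. The log2 difference was -0.58 with TMM (SE 0.21, adjusted p = 0.0401, edgeR), -0.79 with DESeq2 size factors (adjusted p = 0.0116) and 0.28 with total counts (adjusted p = 0.305), so its direction depended on the scaling. Leaving out any WT replicate, or cKO replicate 1 or 2, ended the call, with values between -0.63 and -0.43 and adjusted p between 0.0753 and 0.106 by edgeR. The replicate number as a block also ended the call (-0.60, adjusted p = 0.0540, edgeR). *Gjb2* held 0.08, 0.17 and 0.06 FPKM in WT and 0.23, 0.55 and 0.90 in the cKO, from 2 to 6 and 8 to 30 estimated counts. Its FPKM groups did not overlap (exact two-sided permutation p = 0.1, the smallest that 3 against 3 samples allow), but its TMM-scaled counts did, and it was below the filter. The difference on log2(FPKM + 0.1) was 1.60, and 2.02 without cKO replicate 1.

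**Figure D2:**
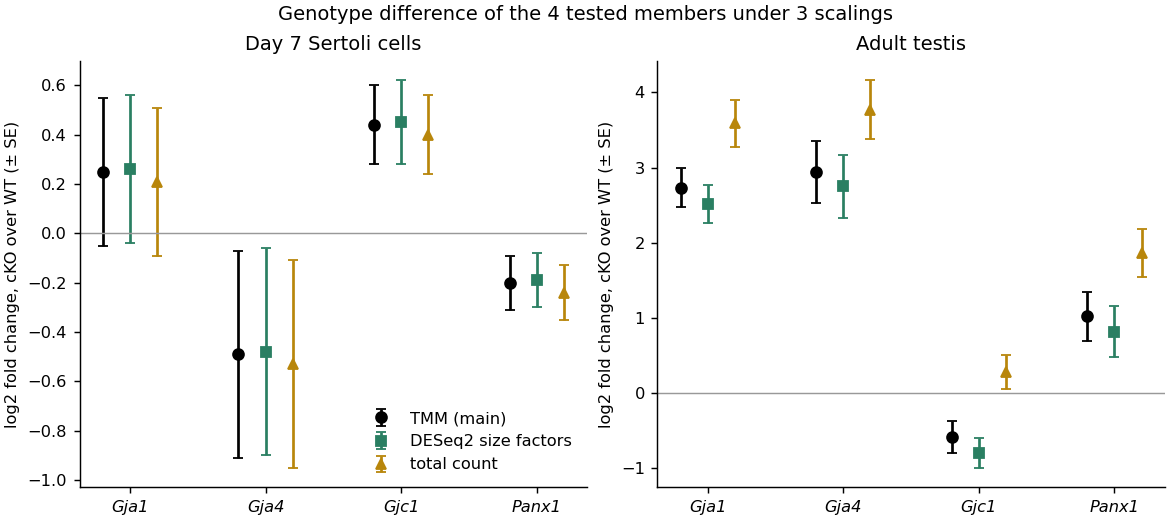
log2 fold change (cKO over WT) ± SE from edgeR for the 4 tested members at day 7 (left) and in adult testis (right; the vertical axes differ) under TMM, DESeq2 size factor and total-count scaling. In adult testis *Gja1*, *Gja4* and *Panx1* lie above 0 under all 3 scalings, and *Gjc1* moves from -0.79 to 0.28.

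Within the adult WT, *Gjc1* (4.87 ± 0.484 FPKM) and *Gja1* (4.57 ± 0.743) overlapped at the top of the members, followed by *Panx1* (1.35 ± 0.368), *Gja4* (0.387 ± 0.117), *Gja5* (0.227 ± 0.0751) and *Gjb2* (0.103 ± 0.0586), where the ranges of *Gja4* and *Gja5* met at 0.30 and those of *Gja5* and *Gjb2* overlapped. In the samples labelled cKO, *Gja1* (55.1 ± 17.6) stood alone, and *Gjc1* (5.85 ± 1.42), *Gja4* (5.33 ± 1.76) and *Panx1* (4.96 ± 1.20) could not be ordered beyond their spread. *Gjb2* (0.560 ± 0.335) and *Gja5* (0.407 ± 0.280) overlapped below 1 FPKM.

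The share of *Gja1* among all connexin transcripts is a measure within each sample and needs no scaling between samples. Of the 20 connexin genes listed, 17 were in the day 7 table and 19 in the adult table. At day 7, *Gja1* made up 51.8% and 50.1% of the summed connexin FPKM in WT and 52.2% and 48.1% in cKO (50.9% ± 1.26 against 50.1% ± 2.87, SD, n = 2). These shares overlapped, although the summed FPKM itself ran from 42.1 to 70.2 in the cKO samples. In adult testis the share was 25.5%, 24.1% and 24.3% in WT and 67.6%, 82.3% and 76.5% in the samples labelled cKO. The groups were separated by 50.8 percentage points (24.6% ± 0.771 against 75.5% ± 7.44, n = 3, exact two-sided permutation p = 0.1), and by 54.8 without cKO replicate 1. Shares add up to 100%, so a larger share of *Gja1* lowers those of the other connexins. *Gjc1* made up 25.1%, 27.9% and 26.1% in WT and 10.5%, 5.67% and 9.13% in the cKO, while its own FPKM overlapped between the groups. *Gja4* made up 1.49%, 2.19% and 2.60% in WT and 14.2%, 5.03% and 5.51% in the cKO, without overlap. Its difference of means was 6.15 percentage points, and 3.18 without cKO replicate 1, the sample with the highest share.

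**Figure D3:**
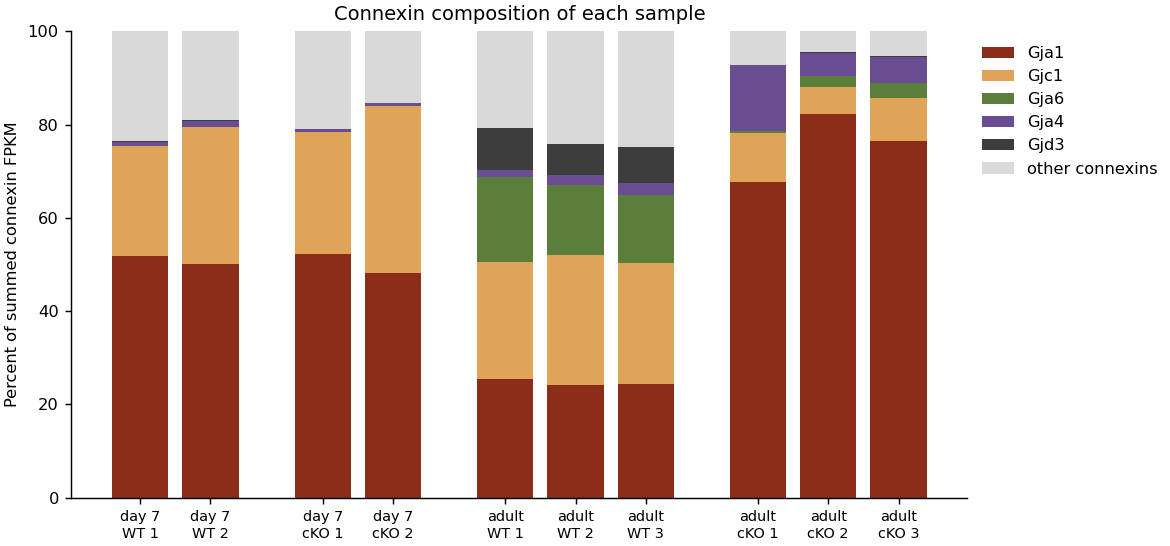
Percent of summed connexin FPKM contributed by *Gja1*, *Gjc1*, *Gja6*, *Gja4*, *Gjd3* and the other connexins in each of the 10 samples (stacked bars add up to 100%). *Gja1* takes 48.1% to 52.2% of each day 7 bar, 24.1% to 25.5% of each adult WT bar and 67.6% to 82.3% of each adult cKO bar.

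Beyond the members, *Gjd3* and *Panx2* were among the genes of both families called lower in the adult samples labelled cKO. Of 7 connexins tested there, *Gja1* and *Gja4* were called higher, and *Gjc1* and *Gjd3* were among those called lower. The median of the 7 was -0.584 and was 0.276 with total counts, where *Gjc1* turned and the fall of *Gjd3* still passed. *Gjd3* held 1.82, 1.04 and 1.55 FPKM in WT and 0.04, 0.11 and 0.14 in the cKO, from 85, 48 and 71 counts against 2, 5 and 6 (adjusted p = 0.000147, edgeR). *Gja6*, a connexin known from the testis, held 3.67, 2.32 and 2.89 FPKM in WT and 0.25, 2.0 and 2.68 in the cKO. Its FPKM groups overlapped, with the low value in cKO replicate 1, whereas its TMM-scaled counts were lower in the cKO without overlap, and its log2 difference of -1.73 did not pass the test (SE 0.71, adjusted p = 0.0619, edgeR). Its share of connexin FPKM, which falls as that of *Gja1* grows, was 15.9% ± 2.06 in WT and 2.07% ± 1.44 in the cKO, without overlap. Among the pannexins, *Panx2* fell from 47, 63 and 28 counts to 1, 4 and 3 (adjusted p = 0.000356, edgeR) while *Panx1* rose. No fold is given for *Gjd3* and *Panx2*, whose cKO values rest on at most 6 counts a sample and which entered the test through WT. At day 7, 0 of 6 connexins and 0 of 1 pannexin tested were called by edgeR, as were 0% of all genes tested (unadjusted, 1 and 0, where 15.5% of all genes passed).

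Since the adult samples are whole testis, fewer cells of a type and less RNA per cell cannot be told apart, and the member values are given beside the markers of the cell types present. Summed FPKM of 10 spermatid markers was 123547 to 192091 in WT and 3.80 to 93.3 in the samples labelled cKO, and all 10 were called lower. All 10 spermatocyte markers were lower without overlap, and 6 of them were called. These counts stand beside 40.6% of all genes tested called lower, 40.9% called higher and 85.5% without overlap. In adult cKO replicate 1 the summed FPKM was 3.80 for the spermatid and 2.94 for the spermatocyte markers. Some of these markers could thus pass the filter on low values only through WT, their higher group, and both counts are a description. Spermatogonium markers went both ways, with 2 of 9 tested called higher and 4 lower, and a summed FPKM of 296, 265 and 293 in WT and of 48.3, 305 and 444 in the cKO, where replicate 1 was the low one. Of the somatic markers, those called higher were 7 of 7 Leydig cell markers (4044 to 5640 FPKM against 65035 to 89587), 8 of 8 macrophage markers (69.5 to 80.3 against 1781 to 2842), 8 of 9 endothelial markers (9.50 to 11.7 against 68.5 to 123) and 5 of 12 Sertoli cell markers (660 to 798 against 2372 to 6847), with 1 of the latter, *Rhox5*, called lower. The share of Sertoli cell markers called higher was thus near that of all genes. For peritubular myoid cells, 5 of 7 were called higher and 1 lower (297 to 370 against 219 to 457). The part of these shifts in the member values was not tested.

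The Sertoli cell markers were *Sox9*, *Amh*, *Wt1*, *Cldn11*, *Dhh*, *Fshr*, *Gata4*, *Inhbb*, *Rhox5*, *Aard*, *Clu* and *Vim*. The study reports *Cldn11* as lower in the knockout, so genotype differences of the markers themselves also enter values relative to this list. Relative to the mean log2(FPKM + 0.1) of the 12 Sertoli cell markers in the same sample, *Gja1* was at -1.05, -1.15 and -0.90 in adult WT and at 1.64, 0.52 and -0.05 in the samples labelled cKO. The difference of 1.74 had groups that did not overlap (exact two-sided permutation p = 0.1, n = 3), and was 1.27 without cKO replicate 1, the sample with the lowest summed Sertoli cell markers of its group. *Gja4* differed by 1.68 on this scale, with cKO replicate 1 (-0.59) far from replicates 2 and 3 (-3.48 and -3.82), and by 0.66 without it. With log2(FPKM + 1) the *Gja4* difference was 0.44 and the groups overlapped (exact two-sided permutation p = 1.0, n = 3), against p = 0.1 with 0.1 added. *Panx1* differed by 0.03 with overlapping groups, and by -0.90 without cKO replicate 1. *Gjc1* was lower by a difference of -1.54, with overlapping groups, and *Gja5* by -1.26 without overlap. Without cKO replicate 1 these were -2.27 and -1.67, neither with overlap.

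The result turned with the marker list. Against the endothelial list, *Gja1* and *Gja4* differed between the adult groups by 0.27 and 0.21, both with overlapping groups (exact two-sided permutation p = 0.6 and 0.4, n = 3). Against the Leydig cell list they differed by -1.24 and -1.30 and against the macrophage list by -0.99 and -1.05, and against the peritubular myoid list by 1.78 and 1.72, all without overlap. The differences of *Gja1* and *Gja4* between the groups were thus larger than those of the Sertoli and myoid list means and smaller than those of the Leydig cell and macrophage list means. Without cKO replicate 1, *Gja1* differed by 0.79 against the endothelial list, where its groups no longer overlapped, and kept its direction against the other 4 lists, as did *Gja4*. *Panx1* differed by 0.03 and 0.06 against the Sertoli and myoid lists, with overlapping groups, and by -2.95, -1.44 and -2.71 against the Leydig cell, endothelial and macrophage lists, without overlap. *Gjc1* was lower against all 5 lists, by -1.50 to -4.52, and overlapped only against the Sertoli list.

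At day 7, 2 samples against 2 cannot give an exact permutation p under 0.33, and each of these differences is a description. The Sertoli list mean itself was lower in the cKO cells by a difference of -0.65, and the myoid list mean was higher by 1.02, neither with overlap. The Leydig cell and macrophage list means were also higher without overlap, by 0.74 and 0.55, and the endothelial list mean overlapped (0.13). Of 10 spermatogonium markers, 9 were lower in the cKO cells without overlap, as 51% of all genes tested did not overlap in either direction, with a summed FPKM of 207 and 213 in WT and 144 and 147 in cKO. Relative to the Sertoli list, *Gjc1* was higher without overlap, by 1.04 (-2.02 and -1.65 in WT, -0.23 and -1.37 in cKO). Its difference was 0.46 without cKO replicate 1 and 1.61 without cKO replicate 2. The groups of *Gja1* (0.80) and *Panx1* (0.41) overlapped. Their differences turned to -0.06 and -0.11 without cKO replicate 1, and were 1.66 and 0.93 without cKO replicate 2. Relative to the myoid list all 6 members were lower without overlap, by -0.64 to -1.49. The part of these marker shifts in the day 7 member values was not tested.

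**Figure D4:**
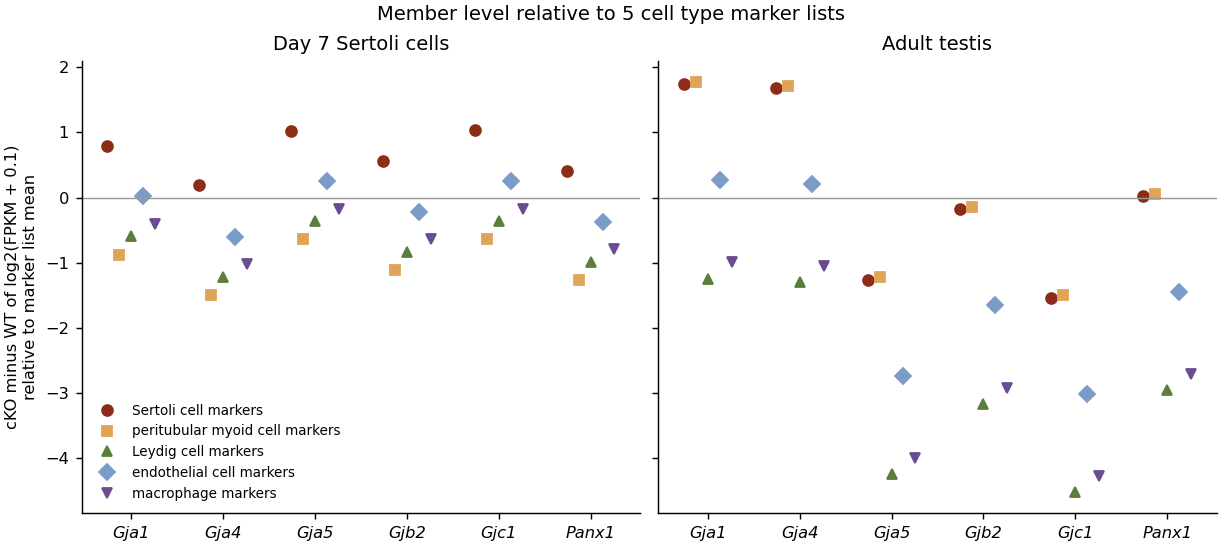
Difference between cKO and WT means of each member's log2(FPKM + 0.1) after subtraction of the mean over 1 of 5 marker lists in the same sample, at day 7 (left) and in adult testis (right). In adult testis *Gja1* and *Gja4* lie above 0 against the Sertoli and peritubular myoid lists and below 0 against the Leydig cell and macrophage lists, and *Gjc1* lies below 0 against all 5.

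Genes that act on gap junction proteins were examined from a list of 19 binding partners and regulators, all of which were tested in each table. At day 7, 0 were called by edgeR (unadjusted, 5, where 15.5% of all genes passed), and the median log2 difference was 0.0297 against -0.00388 over all genes. In adult testis 8 of 19 were called higher, a share near the 40.9% of all genes tested, and 4 lower, where 40.6% of all genes were, with a median of 0.406 against 0.0113. One of the 8, *Ccn3*, was below the filter in every WT sample (0.17, 0.09 and 0.03 FPKM) and entered the test through the samples labelled cKO, so this count too is a description. The largest rises were those of *Ezr*, which anchors membrane proteins to actin (3.67, SE 0.20, adjusted p = 3.42e-05), *Nedd4*, a ubiquitin ligase of *Gja1* protein (3.26, SE 0.24, adjusted p = 7.24e-05), and *Cav1*, a caveolar protein (3.20, SE 0.20, adjusted p = 4.76e-05), all by edgeR. The largest falls were those of *Dbn1*, an actin-binding partner of *Gja1* protein, at -2.29 (SE 0.24, adjusted p = 0.000227), *Smurf2*, another ubiquitin ligase, at -1.16 (SE 0.10, adjusted p = 0.000127), and *Csnk1d*, a kinase of *Gja1* protein, at -1.15 (SE 0.15, adjusted p = 0.000647). With total counts 12 were called higher and 1, *Dbn1*, lower, and *Smurf2* (-0.30) and *Csnk1d* (-0.29) no longer passed. The rise of *Gja1* (2.73) lay between those of *Src* (2.38) and *Cav1*.

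ATP released through pannexin channels and its breakdown products act on purinergic receptors, and ectonucleotidases degrade them outside the cell. Of 21 such genes, 11 were tested at day 7, where 0 were called by edgeR (unadjusted, 5, where 15.5% of all genes passed; median 0.309), and 17 in adult testis, where 13 were called higher and 3 lower (median 3.10), beside 40.9% and 40.6% of all genes tested. Of the 13, *P2ry13*, *P2rx6*, *P2ry1*, *P2rx1*, *P2ry2* and *P2ry12* entered the test through the samples labelled cKO, since at most 1 WT sample reached the filter, and of the 3, *P2rx3* and *Adora2b* entered through WT, so these counts are a description. *Panx1*, the ATP release channel among the members, rose by 1.02 in the same samples. The ADP receptor *P2ry13* went from 0.29, 0.24 and 0.27 FPKM to 9.53, 8.97 and 7.12 (log2 difference 4.13, SE 0.25, adjusted p = 4.41e-05, edgeR). *P2rx6*, a subunit of ATP-gated channels, went from 0.27, 0.18 and 0.18 to 7.74, 5.26 and 4.64 (3.99, SE 0.37, adjusted p = 0.000149, edgeR). Both folds rest on few WT counts, 11, 9 and 10 for *P2ry13* and 9, 6 and 6 for *P2rx6*. *P2ry1*, a further ADP receptor, was called higher from 2, 1 and 3 counts in WT to 50, 45 and 49 in the cKO, too few in WT for a fold. The ATP-gated channel subunits *P2rx3* (10.22, 9.67 and 12.42 FPKM in WT against 0.14, 0.48 and 0.49, log2 difference -5.84, adjusted p = 7.36e-05) and *P2rx2* (26.9, 24.06 and 27.16 against 0.82, 4.67 and 8.09, -3.39, adjusted p = 0.00441) and the adenosine receptor *Adora2b* (-1.97, adjusted p = 0.00991) were called lower by edgeR, the last not with total counts (-1.11, adjusted p = 0.0835). Macrophages also carry several of these receptors, and the macrophage markers were higher in the same samples. Their part was not tested.

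**Figure D5:**
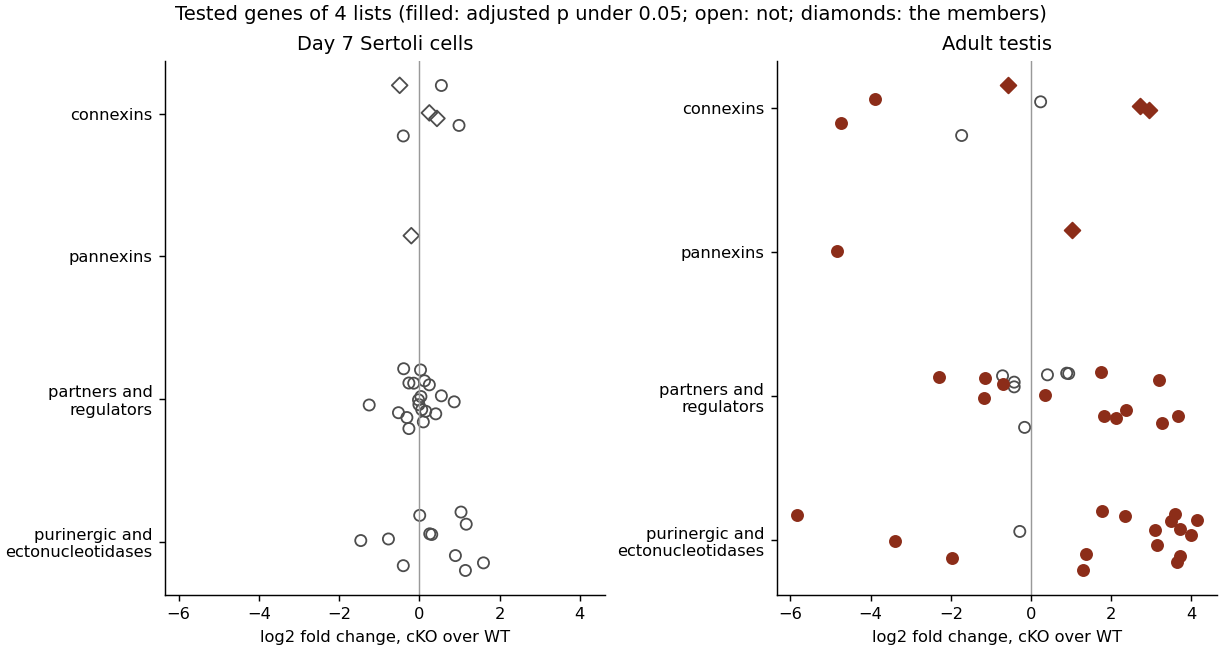
log2 fold change (cKO over WT) of each tested gene of 4 lists at day 7 (left) and in adult testis (right), with filled symbols for an adjusted p under 0.05, open symbols for the others and diamonds for the members (the vertical scatter carries no value). At day 7 all symbols are open, and in adult testis the purinergic list holds 13 filled symbols above 0 and 3 below.

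Genes with the pattern most like a member over the 10 samples were found among 12378 genes by the root mean square difference in log2(TMM-scaled CPM + 0.5) after centring in each table. The nearest to *Gja1* were *Map4k4* (0.142) and *Bmpr2* (0.151), with adult log2 differences of 2.56 and 2.56. Nearest to *Gja4* were *Klhl2* (0.101) and *Acad12* (0.111), on values that the added 0.5 compresses for so scarce a gene. *Gjc1* was most like *Lnx2* (0.126) and *Herc1* (0.154), which had adult differences of -0.51 and -0.57, and *Panx1* was most like *Myo1e* (0.157) and *Cpsf6* (0.163), with 0.80 and 1.01. These distances describe the 10 samples and were not tested.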

How the data were processed

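RNA-seq values of 4 day 7 and 6 adult samples were analysed in 2 separate tables, since the authors made them separately. Per the methods of the study, oligo(dT)-enriched RNA was sequenced on the BGISEQ platform, HISAT aligned reads to GRCm38.p6, Bowtie2 aligned them to reference genes, and RSEM gave the values. Tool versions and strand handling were not given in the sources used here, and the adult processing is known only from its column names. The deposited estimated counts are not normalized and differ from a whole number by over 1e-06 for 10.7% to 13.2% of genes. The FPKM values were scaled by the authors for gene length and library size. The deposited TPM values, scaled to an equal total in every sample, served in 1 alternative.

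Estimated counts were rounded, and genes reaching 0.5 FPKM in 2 samples at day 7 or 3 in adult testis (the group sizes) were tested by edgeR's quasi-likelihood test with TMM scaling and Benjamini-Hochberg adjustment over all genes tested. An adjusted p under 0.05 was called. Standard errors were derived from the log2 fold change and the F statistic. Within-sample shares and differences from marker lists were compared by exact two-sided permutation tests. All 6 members are reported, and from the other lists the called genes, or the 3 largest rises and falls where over 6 were called, are named, with *Rnf20*, other connexins and markers beside them. *Gja6*, *Rhox5*, *Src*, *Ccn3*, *P2rx1*, *P2ry2* and *P2ry12* were named after their values were seen. Other genes that the rule covers are left out here. The members and lists were chosen with earlier results of these data known. The tests were tried on simulated counts. Alternatives were the scaling, the filter, DESeq2, limma on log2(FPKM + 0.1) and log2(FPKM + 1), stricter thresholds, the replicate number as a block, each sample left out and, added after seeing the data, 4 other marker lists, and the named genes, shares and list differences without adult cKO replicate 1. RefSeq coordinates and promoters and GENCODE gene models, all on GRCm38, were used. The promoter table matched 5 of 6 members, and none is given for *Gjc1*. Versions were R 4.3.3, edgeR 4.0.16, limma 3.58.1, DESeq2 1.42.0, Python 3.11.15, numpy 2.4.6, pandas 2.3.3, scipy 1.17.1 and matplotlib 3.10.9.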

Additional observations from a re-analysis of the deposited data

Results flagged for a closer look

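The direction of the genotype difference was opposite at the 2 ages for 3 members, with no overlap between the groups on TMM-scaled CPM at either age. Groups did not overlap on this scale for 51% of all genes tested at day 7 and 85.5% in adult testis. These shares are for each age alone, and the share of all genes with opposite directions at both ages is not given. The ratio of mean TMM-scaled CPM, cKO over WT, was 0.712 at day 7 and 7.74 in adult testis for *Gja4*. This gene passed the filter through its higher group each time, WT at day 7 and the samples labelled cKO in adult testis. Its day 7 ratio rests on 13 and 13 counts in WT against 11 and 7 in cKO. The count of 3 members that includes it is therefore a description only. For *Gjc1* it was 1.36 at day 7 and 0.667 in adult testis, where total-count scaling turned its direction and its FPKM groups overlapped. For *Panx1* it was 0.871 at day 7 and 2.03 in adult testis. The difference between ages was not tested, since cultured Sertoli cells and whole testis were measured in separate tables, and age and sample type cannot be told apart. None of the 3 day 7 differences passed the edgeR test by itself.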

How the results depend on the processing

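Of 295 values recomputed under alternatives for 28 results, 227 kept their direction and their side of the threshold, lay within the spread or, for counts of calls, changed by less than 1.5 times. The count of members called in adult testis was 4. It was 3 with DESeq2 size factors, total counts, no filter and limma on both scales, 2 with the replicate block or the stricter thresholds, and 2 to 4 when 1 sample was left out. At day 7 it was 0 in every fit that kept all samples. Fits without 1 sample left a single sample in a group there, so their counts of calls are not compared. With 1 sample left out, day 7 values ran from -0.25 to 0.62 for *Gja1*, -0.86 to -0.19 for *Gja4*, 0.28 to 0.58 for *Gjc1*, -0.30 to -0.11 for *Panx1*, -0.16 to 0.93 for *Gja5* and -0.33 to 0.16 for *Gjb2*, and adult values from 0.10 to 0.87 for *Gja5*, -0.67 to -0.43 for *Gjc1* and 0.81 to 1.20 for *Panx1*. The stricter thresholds ended the adult calls of *Gjc1* (-0.58) and *Panx1* (1.02).

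*Gjc1* in adult testis was -0.55 without a filter (adjusted p = 0.0559), 0.28 with total counts, 0.24 and 0.21 with limma on log2(FPKM + 0.1) and log2(FPKM + 1), and -0.60 with the replicate block (adjusted p = 0.0540, edgeR). *Gja5* in adult testis was 0.00 by edgeR without a filter. *Panx1* was 0.82 with DESeq2 size factors and 1.01 with the replicate block (adjusted p = 0.0848, edgeR). The cause was not tested. Deviations of same-numbered samples correlated by 0.0107 to 0.0358, and every sample correlated best with its own number. With 2 samples in each group, the day 7 deviations mirror each other, so 0.0358 and -0.0358 there cannot decide a pairing. Whether same-numbered samples belong together is not known.

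The *Gja1* share at day 7 differed by -2.82 to 1.23 percentage points when 1 sample was left out. Relative to the Sertoli list at day 7, leaving out 1 sample gave -0.06 to 1.66 for *Gja1*, -0.50 to 0.87 for *Gja4*, 0.06 to 2.01 for *Gja5*, -0.02 to 1.16 for *Gjb2*, 0.46 to 1.61 for *Gjc1* and -0.11 to 0.93 for *Panx1*, and in adult testis -0.52 to 0.12 for *Gjb2* and -0.90 to 0.49 for *Panx1*, which was -0.39 with log2(FPKM + 1). That setting also moved *Gja4* from 1.68 to 0.44 and *Gjb2* from -0.18 to -1.24 in adult testis, and *Gja4* from 0.19 to 0.46 at day 7, and ended the overlap of adult *Gjc1* (-1.51). Other lists turned the day 7 differences. The myoid list gave -0.88 for *Gja1*, -1.49 for *Gja4*, -0.64 for *Gja5*, -1.11 for *Gjb2*, -0.64 for *Gjc1* and -1.26 for *Panx1*. The Leydig cell list gave -0.59, -1.21, -0.36, -0.83, -0.36 and -0.98 in that order, and the macrophage list -0.40, -1.02, -0.17, -0.64, -0.17 and -0.79. The endothelial list gave -0.60 for *Gja4*, -0.22 for *Gjb2* and -0.37 for *Panx1*. In adult testis the Leydig cell, macrophage and endothelial lists turned *Panx1* (-2.95, -2.71 and -1.44), and the former 2 turned *Gja1* (-1.24 and -0.99) and *Gja4* (-1.30 and -1.05). Few counts limit *Gja4* at day 7, *Gja5* and *Gjb2*.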
